A study of Mus musculus with 7 samples.

Results

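Integrins and laminins were followed gene by gene in control mammary glands and in mammary tumours from mice with an ECD transgene. The members are the 36 integrin and laminin subunit genes found by gene symbol, 26 integrin and 10 laminin genes of the 50600 genes in the deposited tables. They were chosen by family, with earlier results of these data known. Bulk RNA sequencing libraries came from 3 control mammary glands and 4 ECD transgenic tumours: 1 papillary (tumour 4), 1 spindle cell (tumour 3) and 2 adenosquamous (called 1a and 1b). The tumour RNA came from the centre of each tumour. The sources used here do not give strain, age, the promoter of the transgene or the genotype of the gland donors. In the submitters' design text, glands and tumours alike are described as independent. The adenosquamous pair carries the same tumour number, however, and the labels state neither whether both are pieces of 1 tumour nor whether 1 animal bore them. Each is counted here as 1 tumour library. The glands are not tied to named animals either, so p-values measure the spread between these libraries.

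Integrins are receptors made of an alpha and a beta chain that hold cells to the matrix around them. Laminins are 3-chain proteins, 1 alpha, 1 beta and 1 gamma, which form the sheet called the basement membrane under epithelia and around muscle fibres, fat cells and vessels. In the mammary gland, basal (myoepithelial) cells sit on this sheet, and hemidesmosomes anchor them to it by the integrin of the Itga6 and Itgb4 chains, which binds a laminin built with the Lama3 and Lamb3 chains. Leukocytes carry integrins of their own, so their abundance in a tissue piece enters these counts. In bulk tissue, fewer cells of a type and less RNA per cell cannot be told apart.

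Total counts were between 5148438 and 35631279 in the glands and between 5420562 and 28638143 in the tumours. Values are CPM, counts scaled to 1000000 per library after TMM scaling, which aims to adjust for differences in library composition and may not remove them. Genes of the mitochondrial genome took 48.4% to 64.8% of counts in glands and 18.3% to 32.6% in tumours. Markers fixed for the tissue were present in the glands: 7 luminal markers summed to 252 to 484 CPM, 7 basal markers to 142 to 373 CPM and 7 adipocyte markers to 3309 to 6170 CPM. In tumours the adipocyte sum was 8.47 to 522 CPM. Skeletal muscle markers summed to 13692 and 26982 CPM in control glands 1 and 3 but to 21.7 CPM in control gland 2, and to at most 212 CPM in a tumour.

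Of the 36 members, 35 had enough counts to be tested. In edgeR's quasi-likelihood test of the 4 tumours against the 3 glands (Benjamini-Hochberg adjusted p under 0.05 over 14149 genes), 2 members rose, 2 fell and 31 did not pass. The background over all genes tested was 3.9% higher and 4.57% lower. The median log2 fold change of the 35 members was 0.78, beside 0.12 over all genes. In the adenosquamous tumours alone, tested against the same 3 glands over 14708 genes, 10 members rose and 2 fell, beside a background of 5.01% higher and 5.36% lower. Their median was 0.91, beside -0.04 over all genes. DESeq2 called 9 members higher and 2 lower over all tumours, beside 12.8% and 11.3% of all genes, and limma-voom 1 and 2, beside 4.46% and 6.31%. In the adenosquamous tumours DESeq2 called 17 and 2, beside 11.9% and 12.3% of all genes, and limma-voom 10 and 1, beside 6.01% and 4.75%. Both comparisons share the 3 glands and the adenosquamous libraries. For fits that left out 1 library, shares of all genes called are not given here. Counts of members called depended on single libraries: no member passed in the adenosquamous edgeR test without control gland 3 or without tumour 1b, with 17 and 15 members higher and 2 and 3 lower at unadjusted p under 0.05.

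**Figure D1:**
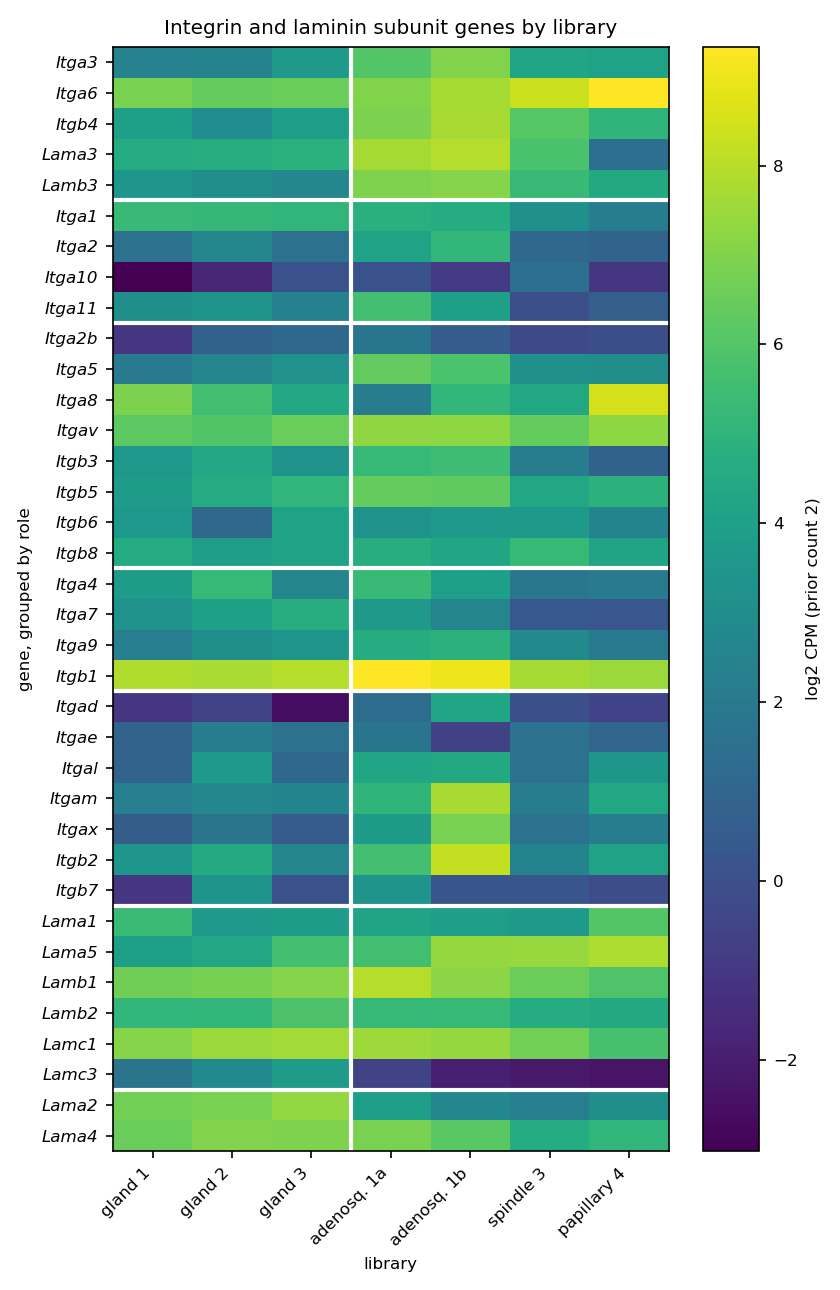
Each row is a member gene, grouped by role, and each column a library; colour gives log2 CPM with a prior count of 2. The 3 glands stand left of the white vertical line and the 4 tumours right of it, and Itgb4 and Lamb3 are brighter in all 4 tumours while Lama2 and Lamc3 are darker.

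The members whose calls are described below start from promoters that differ in G and C content. The windows shown are the 250 bases before the RefSeq start (GRCm38.p6), printed 5′ to 3′ on the strand of the gene. They were picked, after their values were seen, from the called members outside the leukocyte group. The genes shown have a window and no window that holds any of the gene's annotated exons. Itga3 is not shown: its window starting at 95076715 overlaps its exons, while its window starting at 95069199 does not. The first 3 genes rose in the adenosquamous tumours and Lama2 fell in all tumours. Capitals mark a GC box (GGGCGG or its reverse complement).
Itga5, chr15:103366792-103367041, minus strand: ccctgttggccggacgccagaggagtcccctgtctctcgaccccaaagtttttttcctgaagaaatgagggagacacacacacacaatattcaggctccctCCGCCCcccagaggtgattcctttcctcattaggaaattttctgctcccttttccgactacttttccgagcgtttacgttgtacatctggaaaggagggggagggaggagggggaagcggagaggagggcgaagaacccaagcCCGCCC
Itga2, chr13:114932101-114932350, minus strand: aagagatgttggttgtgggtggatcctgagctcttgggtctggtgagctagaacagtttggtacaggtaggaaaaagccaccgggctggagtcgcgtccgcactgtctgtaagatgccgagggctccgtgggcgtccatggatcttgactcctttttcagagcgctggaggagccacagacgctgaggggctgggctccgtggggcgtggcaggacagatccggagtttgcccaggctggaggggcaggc
Itgb5, chr16:33829415-33829664, plus strand: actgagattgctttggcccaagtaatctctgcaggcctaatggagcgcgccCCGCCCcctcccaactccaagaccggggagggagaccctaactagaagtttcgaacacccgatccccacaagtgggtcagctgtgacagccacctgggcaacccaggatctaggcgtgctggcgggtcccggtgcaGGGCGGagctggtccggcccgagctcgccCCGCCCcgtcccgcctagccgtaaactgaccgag
Lama2, chr10:27616943-27617192, minus strand: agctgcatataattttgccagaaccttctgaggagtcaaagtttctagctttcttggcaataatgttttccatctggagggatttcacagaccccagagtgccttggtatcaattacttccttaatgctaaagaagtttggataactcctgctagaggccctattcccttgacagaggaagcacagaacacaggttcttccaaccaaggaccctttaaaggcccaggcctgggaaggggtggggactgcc
The Itga5 window held 2 GC boxes at 55.6% G and C, and the Itgb5 window held 3 at 65.2%. The Itga2 window (60.8%) and the Lama2 window (47.2%) held none. RefSeq starts were found for 23 of the 36 members, with 26 windows. A GC box was in 9 of these 26 windows, and in 32.7% of all 32851 windows of that length. Also searched on both strands were the AP-1 site TGANTCA, the TATA box TATAAA and the ETS core CCGGAA, which were in 1, 0 and 1 of the 26 windows and in 6.75%, 12.4% and 12% of all windows. The 4 printed windows held none of these. A match describes the letters and not a bound site. The RefSeq start of Lama2 lies inside the longer GENCODE gene model, which spans chr10:26980036-27619758.

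Over all tumours 2 of the 5 hemidesmosome and basal subunits rose in edgeR, Itgb4 and Lamb3, with 4 at unadjusted p under 0.05, 4 called by DESeq2 and 1 by limma-voom. Of all genes, 3.9%, 12.8% and 4.46% were called higher by edgeR, DESeq2 and limma-voom. Itgb4, the beta chain that links laminin to keratin filaments (chromosome 11, 115974709 to 116008412, GRCm38), was at 15.2, 7.91 and 14.6 CPM in control glands 1, 2 and 3. It was at 119 and 209 CPM in adenosquamous tumours 1a and 1b, 70.0 CPM in the spindle cell tumour and 33.1 CPM in the papillary tumour. Every tumour lay above every gland, with the adenosquamous pair highest, and the log2 fold change was 3.11 (SE 0.67, adjusted p = 0.0345, edgeR). Lamb3, a laminin beta chain of hemidesmosomes (chromosome 1, 193207699 to 193343878), was at 11.0, 8.38 and 6.40 CPM in the glands, and at 124, 134, 40.2 and 21.9 CPM in tumours 1a, 1b, 3 and 4. It stood in the same order among tumour types as Itgb4 and rose by 3.23 on the log2 scale (SE 0.71, adjusted p = 0.0368). Neither call held without any 1 gland (adjusted p = 0.104, 0.105 and 0.123 for Itgb4 and 0.106, 0.109 and 0.139 for Lamb3) or without tumour 1a (0.0580 and 0.0593) or 1b (0.0591 and 0.0760), and the call of Itgb4 was also lost without the spindle cell tumour (0.0535). Lamb3 was lost in limma-voom as well (0.0548). Of the exon bases of Itgb4, 7.66% overlap the antisense gene B230344G16Rik, whose reads cannot be told apart here.

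The other 3 subunits of this group did not pass over all tumours in edgeR. Itga3, the alpha chain of another epithelial laminin receptor, was at 5.31, 5.45 and 12.3 CPM in the glands and at 65.1, 127, 19.7 and 16.9 CPM in tumours 1a, 1b, 3 and 4. The groups did not overlap, but the difference over all tumours did not pass in edgeR (log2 2.88, SE 0.83, adjusted p = 0.0737; 0.0438 without the papillary tumour). It passed in DESeq2 (adjusted p = 0.00272) and not in limma-voom (0.123). Lama3, the alpha chain that pairs with Lamb3, was at 23.3, 25.0 and 29.2 CPM in the glands, 205 and 247 CPM in tumours 1a and 1b, 55.8 CPM in the spindle cell tumour and 2.68 CPM in the papillary tumour. The papillary tumour thus lay below every gland while the other tumours lay above (log2 2.30, SE 1.18, adjusted p = 0.237; 2.65 and 0.0333 without it). Itga6, the alpha chain that pairs with either Itgb4 or Itgb1, had the opposite order: 114, 85.7 and 93 CPM in the glands, 127 and 201 CPM in tumours 1a and 1b, 324 CPM in the spindle cell tumour and 639 CPM in the papillary tumour (log2 1.73, SE 0.56, adjusted p = 0.0980 in edgeR, 0.0215 in DESeq2 and 0.108 in limma-voom). Over all 35 tested members, 4 had every tumour above every gland: Itga3, Itga6, Itgb4 and Lamb3. The background of that pattern was 16.3% of genes.

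In the adenosquamous tumours 4 of these 5 subunits rose, beside 5.01% of all genes. Lamb3 rose 14.5-fold (log2 SE 0.35, adjusted p = 0.0180), Itgb4 12.5-fold (SE 0.45, adjusted p = 0.0183), Itga3 11.8-fold (SE 0.51, adjusted p = 0.0205) and Lama3 8.33-fold (SE 0.28, adjusted p = 0.0180), while Itga6 did not pass. None of these calls held without control gland 3 or tumour 1b, and those of Itgb4 (adjusted p = 0.0501) and Itga3 (0.0592) were also lost without tumour 1a, that of Itga3 also without control gland 1 (0.0543). Basal cell markers did not follow the same order in every library. The summed basal markers were 1742 and 797 CPM in tumours 1a and 1b, 458 CPM in the spindle cell tumour and 96.9 CPM in the papillary tumour, against 142 to 373 CPM in glands, with 1 of 7 markers passing as higher over all tumours and Krt17 at 0 in at least 1 library. The papillary tumour was thus below every gland in this sum while above every gland in Itgb4, Lamb3 and Itga3, and tumour 1a exceeded 1b in the sum but not in those genes or Lama3. Summed luminal markers, of which 1 of 7 passed as higher, were 299, 745, 1164 and 2356 CPM in tumours 1a, 1b, 3 and 4. The part of either cell type in these differences was not tested.

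**Figure D2:**
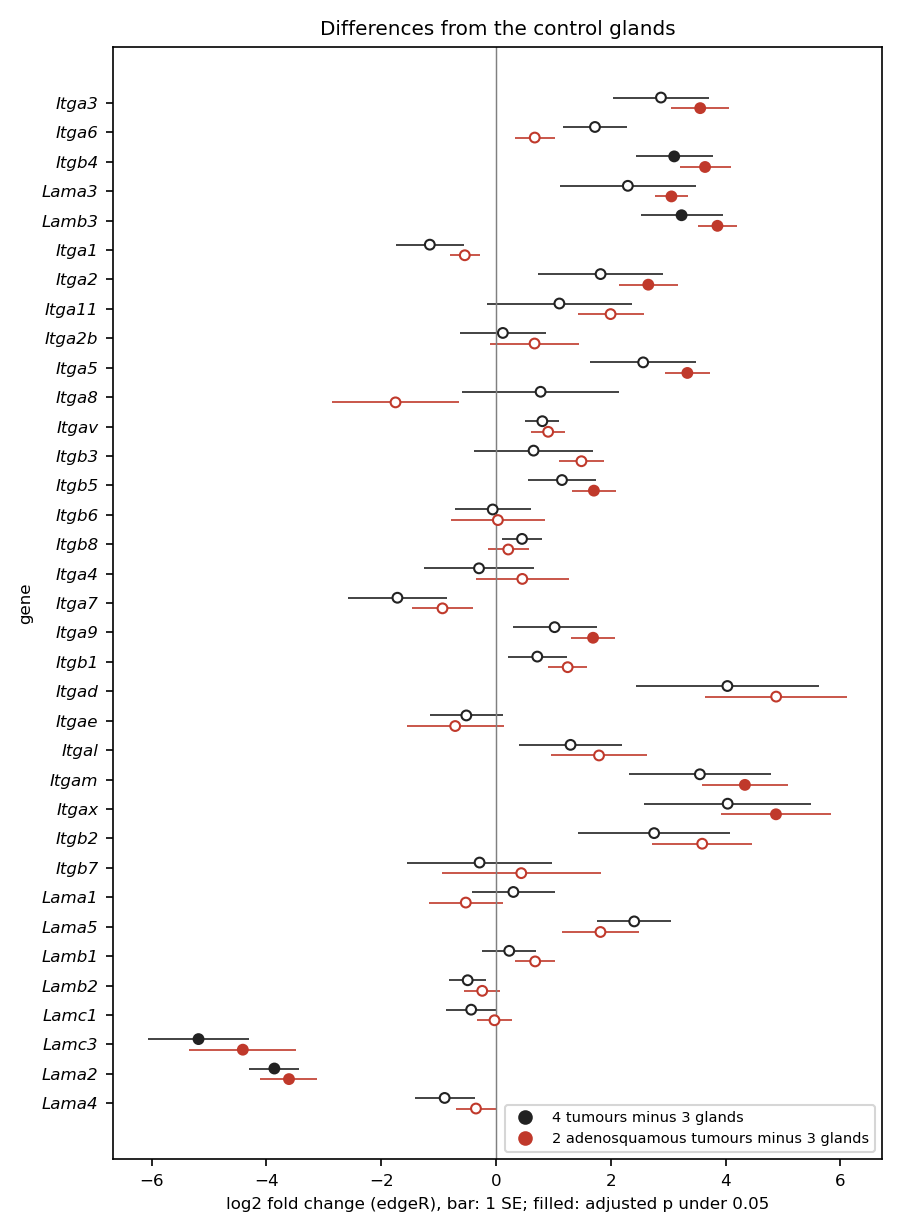
The log2 fold change of each tested member against the 3 glands, for all 4 tumours (black) and for the 2 adenosquamous tumours (red), with bars of 1 SE; filled points had an adjusted p under 0.05 in edgeR. Filled points lie to the right for Itgb4 and Lamb3 and to the left for Lama2 and Lamc3 in both comparisons, and the bars are longer for all 4 tumours in most genes.

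A laminin alpha chain and a laminin gamma chain fell in the tumours. Lama2, the alpha chain of the basement membrane of muscle, fat cells and nerve, was at 103, 115 and 162 CPM in control glands 1, 2 and 3 and at 14.9, 6.67, 4.73 and 8.50 CPM in tumours 1a, 1b, 3 and 4. Every tumour lay far below every gland, and Lama2 fell 14.5-fold (log2 -3.86, SE 0.44, adjusted p = 0.00849). The call held in 14 of 15 alternative settings and was lost with control gland 2 as the only control (log2 -3.78, adjusted p = 0.197). Lamc3, a gamma chain (chromosome 2, 31887291 to 31946539), had 9, 228 and 291 counts in the glands and 7, 1, 1 and 2 counts in tumours 1a, 1b, 3 and 4. That is 3.18, 7.19 and 13.8 CPM against 0.596, 0.136, 0.0985 and 0.0697 CPM, with all tumours below all glands (log2 -5.18, SE 0.88, adjusted p = 0.0178). The call of Lamc3 was lost without the spindle cell tumour (0.0502), control gland 3 (0.0829) or tumour 1b (0.0593), and 6.27% of its exon bases overlap an antisense gene. Itga1 was the third member with every tumour below every gland, a pattern that 13.2% of genes showed.

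Both chains also fell in the adenosquamous tumours alone, Lama2 12.2-fold (log2 SE 0.50, adjusted p = 0.0201) and Lamc3 by 4.41 on the log2 scale (SE 0.93, adjusted p = 0.0411), a fitted value that rests on few tumour counts. Neither held without control gland 3, tumour 1a or tumour 1b, and Lamc3 also failed without control gland 1 (0.0526) and in limma-voom (0.0869). Adipocyte markers moved with them: 6 of 7 passed as lower in tumours, and Adipoq, Lep, Cidec and Retn were at 0 in at least 1 library. Skeletal muscle markers were at 21.7 CPM in control gland 2, while Lama2 was at 115 CPM there, within the range of the other glands. Schwann cell and nerve markers summed to 38.2 to 103 CPM in glands and 16.9 to 147 CPM in tumours, with 2 of 5 tested passing as lower and Cdh19 at 0 in at least 1 library. Fibroblast markers summed to 316 to 926 CPM in glands and 180 to 3710 CPM in tumours, with 1 of 7 passing as lower and Dpt at 0 in at least 1 library. The part of fat, muscle, nerve and fibroblast cells in these falls was not tested.

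The remaining 6 laminin chains did not pass in either comparison in edgeR, and 1 of them, Lama5, passed in DESeq2 in both (adjusted p = 0.00147 over all tumours and 0.0372 in the adenosquamous ones). Lama5, the alpha chain of many adult epithelial and vessel basement membranes, was at 15.6, 20.3 and 49.4 CPM in the glands and at 47.7, 163, 170 and 226 CPM in tumours 1a, 1b, 3 and 4 (log2 2.41, SE 0.64, adjusted p = 0.0599). Tumour 1a lay inside the range of the glands, and without it the adjusted p was 0.0321. Lama4, an alpha chain of fat cells and vessel walls, was at 90.9 to 126 CPM in glands, 115 and 71.0 CPM in tumours 1a and 1b, and 24.5 and 34.1 CPM in the spindle cell and papillary tumours (log2 -0.89, SE 0.52, adjusted p = 0.294). Summed endothelial markers were at 207 to 330 CPM in glands and 238, 120, 66.8 and 38.4 CPM in tumours 1a, 1b, 3 and 4. Unlike Lama4, this sum was lower in the papillary tumour than in the spindle cell tumour. None of the 6 endothelial markers passed and none was at 0 in any library, and their part was not tested.

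Lama1, an alpha chain of early embryonic basement membranes, was at 42.1, 12.6 and 13.2 CPM in the glands and 18.1, 14.7, 12.2 and 64.7 CPM in the tumours, highest in the papillary one. Lamb1, a widespread beta chain, was at 101 to 135 CPM in glands and 245, 144, 94.6 and 61.4 CPM in tumours. Lamc1, the common gamma chain, was at 135 to 198 CPM in glands and 186, 164, 103 and 53.1 CPM in tumours. Lamb2, a beta chain of kidney and nerve-muscle contacts, was at 34.9 to 58.0 CPM and 21.9 to 38.3 CPM. Both Lamb1 and Lamc1 were highest in tumour 1a and lowest in the papillary tumour among the tumours.

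Per length, as CPM per kb of merged exons, the laminin chains could be set beside each other. The order rests on these lengths, which were 16.3 kb for Lama2, 12.1 kb for Lama4, 9.92 kb for Lamb1 and 8.27 kb for Lamc1. Lengths of the transcripts present were not measured. In the glands Lamc1 was highest at 20.6 ± 3.86 CPM per kb (SD, n = 3), followed by Lamb1 at 11.7 ± 1.75, Lama4 at 9.41 ± 1.63 and Lama2 at 7.75 ± 1.93. The ranges of Lama4 and Lama2 over the glands overlapped. Among alpha chains, Lama4 and Lama2 led in the glands, Lama3 in tumours 1a and 1b (19.1 and 22.9 CPM per kb), and Lama5 in the spindle cell tumour (14.97) and the papillary tumour (19.8). Lama2 was at 0.289 to 0.912 CPM per kb in the tumours.

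**Figure D3:**
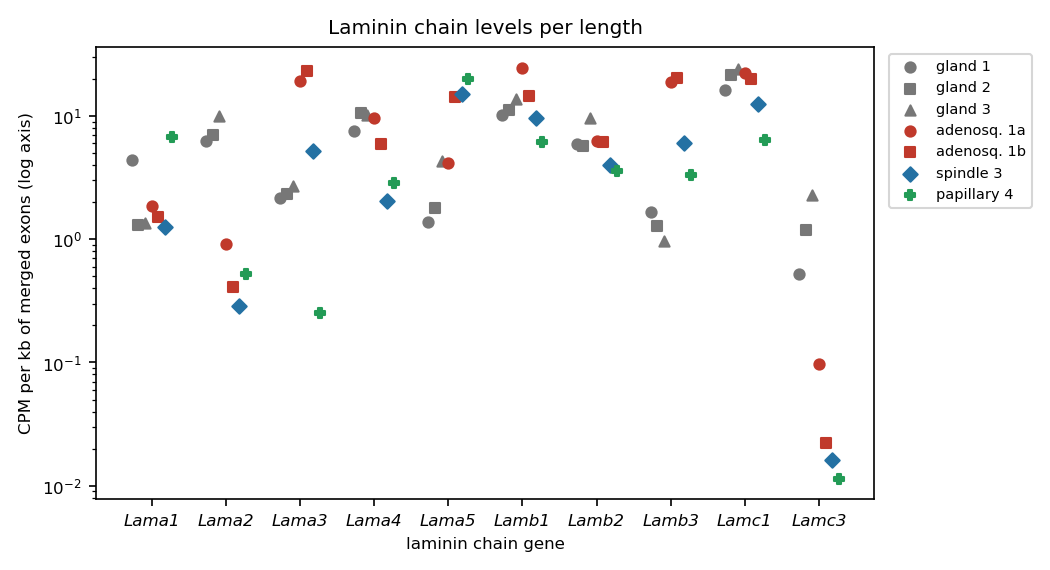
CPM per kb of merged exons on a log axis for each laminin chain, with 1 point per library (grey for glands). Lama2 and Lamc3 lie lower in all 4 tumours than in all 3 glands, and Lama3 in the papillary tumour lies at 0.250 CPM per kb, below the other 6 libraries for that gene.

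Ratios within a library do not depend on library scaling. They were taken for 6 pairs of related chains, as the log2 ratio of counts plus 0.5. The Itgb4 to Itgb1 ratio was -4.26 ± 0.46 in glands (SD, n = 3) and -1.92 ± 0.58 in tumours (SD, n = 4), the Lamb3 to Lamb1 ratio -3.77 ± 0.60 and -0.95 ± 0.60, and the Lama3 to Lama2 ratio -2.26 ± 0.18 and 2.72 ± 3.01. Every tumour lay above every gland for these ratios, by a narrow margin for Lama3 to Lama2 in the papillary tumour (-1.66 against -2.13 in the highest gland). The Lama5 to Lama4 ratio also did not overlap, but tumour 1a (-1.27) nearly met control gland 3 (-1.32). In an exact two-sided permutation test each of these 4 ratios gave p = 0.0571, the smallest that 3 against 4 libraries allow, so none could reach 0.05 (0.0857 adjusted over 6). The Itga6 to Itga7 ratio was 2.62 ± 0.85 in glands and 6.38 ± 2.65 in tumours (exact permutation p = 0.114), and the Itgb6 to Itgb5 ratio -1.58 ± 1.73 and -2.23 ± 1.04 (exact permutation p = 0.629).

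**Figure D4:**
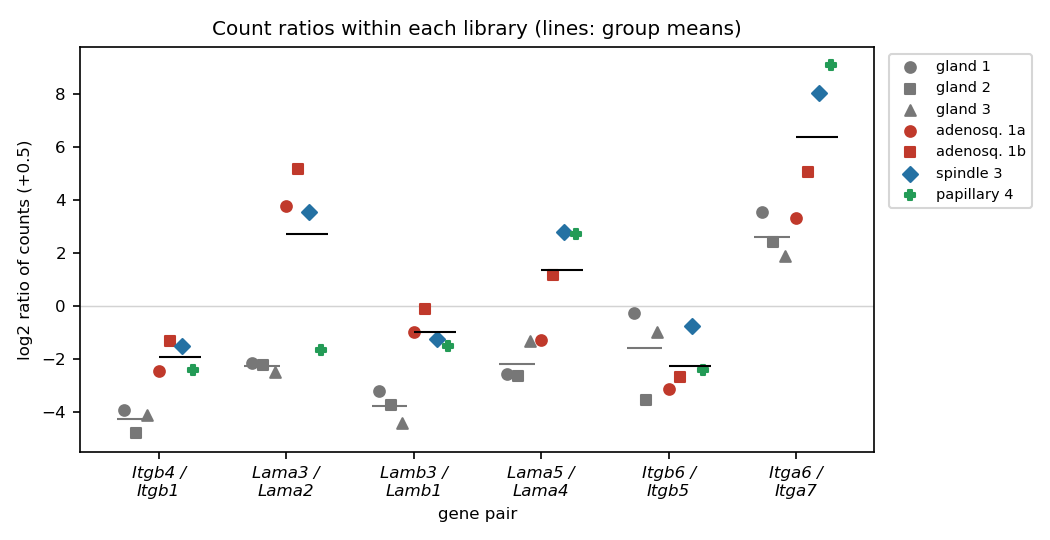
Log2 ratio of counts plus 0.5 within each library for 6 pairs of chains, with 1 point per library and horizontal lines at the means of 3 glands and 4 tumours. Points of glands and tumours do not overlap for the first 4 pairs, and overlap for Itgb6 to Itgb5 and Itga6 to Itga7.

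Itgb1, the beta chain shared by most matrix-binding integrins, was the most abundant member per length in 6 of 7 libraries. It was at 231, 219 and 250 CPM in the glands, 642 and 522 CPM in tumours 1a and 1b, and 199 and 176 CPM in the spindle cell and papillary tumours. The adenosquamous tumours lay above every gland and the others below (adenosquamous log2 1.25, SE 0.34, adjusted p = 0.0680, which passed in DESeq2 and limma-voom). In the papillary tumour Itga6 (70.8 CPM per kb) and Itga8 (49.9) stood above Itgb1 (43.2). Among the other chains of this group, Itga9, a receptor chain for tenascin, rose 3.23-fold in the adenosquamous tumours (log2 SE 0.38, adjusted p = 0.0468; lost without any 1 of the 5 libraries, 0.0601 to 0.227), from 4.60, 8.48 and 10.6 CPM to 24.5 and 29.7 CPM, with 7.19 and 3.90 CPM in tumours 3 and 4. Itga7, a laminin receptor chain of muscle, was at 9.55, 16.0 and 25.2 CPM in the glands and 12.5, 5.99, 1.18 and 1.15 CPM in the tumours, and Itga4 at 5.93 to 37.7 CPM and 3.45 to 39.8 CPM. None of these 4 passed over all tumours in edgeR, with 0 at unadjusted p under 0.05 and 0 in DESeq2 and limma-voom.

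Of the receptor chains for collagen, 1 of 3 tested rose in the adenosquamous tumours, and of those for RGD-bearing matrix proteins 2 of 8. Of all genes 5.01% rose in that test. Itga5, the alpha chain of the main fibronectin receptor, was at 4.24, 5.86 and 9.34 CPM in the glands, 82.9 and 56.3 CPM in tumours 1a and 1b, and 8.97 and 8.22 CPM in tumours 3 and 4. Tumours 3 and 4 lay inside the range of the glands, and the adenosquamous rise was 10.1-fold (log2 SE 0.40, adjusted p = 0.0183). Itga2, a collagen receptor chain of epithelia and platelets, was at 2.83, 6.15 and 2.84 CPM in the glands, 17.6 and 35.8 CPM in tumours 1a and 1b, and 2.07 and 1.78 CPM in tumours 3 and 4, a 6.30-fold rise in the adenosquamous tumours (SE 0.51, adjusted p = 0.0337). Itgb5, a beta chain that binds vitronectin with Itgav, was at 13.8, 23.8 and 33.8 CPM in the glands, 83.6 and 79.2 CPM in tumours 1a and 1b, and 19.9 and 30.1 CPM in tumours 3 and 4, a 3.27-fold rise (SE 0.38, adjusted p = 0.0448). In all 3 genes tumours 3 and 4 lay within or below the range of the glands. The difference between tumour types was not tested, since the others have 1 library each. Adenosquamous calls of all 3 were lost without control gland 3, tumour 1a or tumour 1b, those of Itga2 and Itgb5 also without control gland 1 (adjusted p = 0.0776 and 0.0617), and that of Itgb5 also without control gland 2 (0.0879).

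Platelet markers, which bear on Itga2 and Itga2b, summed to 3.06 to 4.95 CPM in glands and 0.493 to 7.21 CPM in tumours, with Gp9 at 0 in all libraries. Itga11, a collagen receptor chain of fibroblasts, was at 5.17 to 10.1 CPM in glands, 50.2 and 15.5 CPM in tumours 1a and 1b, and 0.887 and 1.5 CPM in tumours 3 and 4. Fibroblast markers summed to 3710 and 1106 CPM in tumours 1a and 1b and to 210 and 180 CPM in tumours 3 and 4, and their part was not tested. Itga1, a collagen receptor chain, was at 34.3 to 39.6 CPM in glands and 28.5, 24.8, 8.97 and 4.56 CPM in tumours. Of the 3 collagen receptor chains tested over all tumours, 0 passed in edgeR, with 0 at unadjusted p under 0.05 and 0 in DESeq2 and limma-voom. Itga10, a collagen receptor chain of cartilage with 33.5% of its exon bases shared with another gene on the same strand, had at most 27 counts in a library and was not tested.

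Of 8 RGD-binding chains, 0 passed over all tumours in edgeR, with 2 at unadjusted p under 0.05, 1 in DESeq2 and 0 in limma-voom. Itgav, the alpha chain shared by several beta chains, was at 63.1 to 92.2 CPM in glands and 152, 148, 85.8 and 149 CPM in tumours (log2 0.81, SE 0.30, adjusted p = 0.128). Only the spindle cell tumour overlapped the glands. Itga8, a receptor chain for nephronectin, varied most: 120, 48.2 and 19.9 CPM in the glands, 4.34 and 35.6 CPM in tumours 1a and 1b, 19.8 CPM in the spindle cell tumour and 367 CPM in the papillary tumour. Its log2 difference of 0.78 turned to -1.75 without the papillary tumour (adjusted p = 0.242). Itgb3 was at 9.39 to 20.9 CPM in glands, 37.9 and 44.9 CPM in tumours 1a and 1b, and 4.53 and 1.64 CPM in tumours 3 and 4. The chains that activate latent TGF-beta showed little order: Itgb6 was at 2.05 to 17.3 CPM in glands and 5.68 to 12.5 CPM in tumours, and Itgb8 at 14.6 to 23.7 CPM and 18.4 to 37.6 CPM. Itga2b was at 0.354 to 1.99 CPM in glands and 0.690 to 3.32 CPM in tumours.

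Of 7 leukocyte integrin chains, 2 rose in the adenosquamous tumours, Itgam and Itgax, beside 5.01% of all genes. Itgam, the alpha chain of the complement receptor of neutrophils and macrophages, was at 4.60, 6.40 and 5.74 CPM in the glands, 33.2 and 207 CPM in tumours 1a and 1b, 4.53 CPM in the spindle cell tumour and 21.0 CPM in the papillary tumour. Itgax, a chain of dendritic cells and macrophages, was at 1.41, 3.15 and 1.37 CPM in the glands and 13.0, 116, 2.86 and 4.39 CPM in the tumours. In both genes the spindle cell tumour lay near the glands and tumour 1b stood highest. The adenosquamous rise was 20.2-fold for Itgam (log2 SE 0.75, adjusted p = 0.0270) and 29.4-fold for Itgax (SE 0.96, adjusted p = 0.0352). Without tumour 1b their log2 differences were 2.54 and 2.65 (adjusted p = 0.0832 and 0.158), and without control gland 1 or 3 neither passed. In limma-voom Itgax was lost as well (log2 4.05, adjusted p = 0.09). A second row with the symbol Itgam, overlapping 68.7% of its exon bases, held 24 and 4 counts in tumours 1b and 3 and 0 elsewhere.

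Their partner chain Itgb2 was at 11.0, 23.1 and 5.93 CPM in the glands and 50.3, 291, 5.71 and 16.8 CPM in tumours 1a, 1b, 3 and 4, and did not pass in the adenosquamous test (log2 3.59, SE 0.87, adjusted p = 0.0541). Itgad had 1, 19 and 1 counts in the glands and 28, 140, 9 and 16 in the tumours. Itgal, the alpha chain of the lymphocyte receptor for ICAM proteins, was at 1.77, 12.2 and 1.99 CPM in the glands and 18.5, 21.9, 2.86 and 11.2 CPM in the tumours. Itgae was at 1.77 to 4.48 CPM in glands and 0.544 to 3.32 CPM in tumours. Itgb7, a homing chain of lymphocytes, was at 10.1 CPM in both control gland 2 and tumour 1a and at 0.354 to 1.09 CPM elsewhere. Over all tumours 0 of the 7 passed in edgeR, with 3 at unadjusted p under 0.05, 3 in DESeq2 and 0 in limma-voom. DESeq2 called 12.8% of all genes higher.

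Blood cell marker sums did not share 1 order with these chains. The 6 general leukocyte markers summed to 90.5, 512 and 68.9 CPM in control glands 1, 2 and 3 and 454, 712, 106 and 140 CPM in tumours 1a, 1b, 3 and 4, so that control gland 2 lay above tumour 1a, with none of the 6 passing in edgeR and Cd52 and Coro1a at 0 in at least 1 library. Neutrophil markers summed to 1.06 to 2.87 CPM in glands, 44.6 and 74.3 CPM in tumours 1a and 1b, and 1.77 and 2.06 CPM in tumours 3 and 4; Retnlg was at 0 in all glands and 0 of the 2 tested passed. Macrophage and dendritic markers summed to 64.0 to 140 CPM in glands and 238.8, 365, 44.7 and 184 CPM in the tumours, with 1 of 6 tested passing as lower and Flt3 at 0 in at least 1 library. T cell markers summed to 111 CPM in control gland 2 and 55.2 CPM in tumour 1a, the libraries with the most Itgb7, and to 1.95 to 8.84 CPM in the others, with Cd3d, Cd8a and Trac at 0 in at least 1. B and plasma cell markers were also highest in tumour 1a (352 CPM) and control gland 2 (123 CPM), at 2.58 to 69.2 CPM in the others, with Cd79a, Ms4a1 and Pax5 at 0 in at least 1. Tumour 1b, highest for Itgam, Itgax, Itgb2 and Itgal, was at 6.94 CPM for the T cell list and 2.58 CPM for the B cell list. Of the T cell list 0 of 4 tested passed, and of the B cell list 0 of 1. The part of blood cells in the integrin values was not tested.

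**Figure D5:**
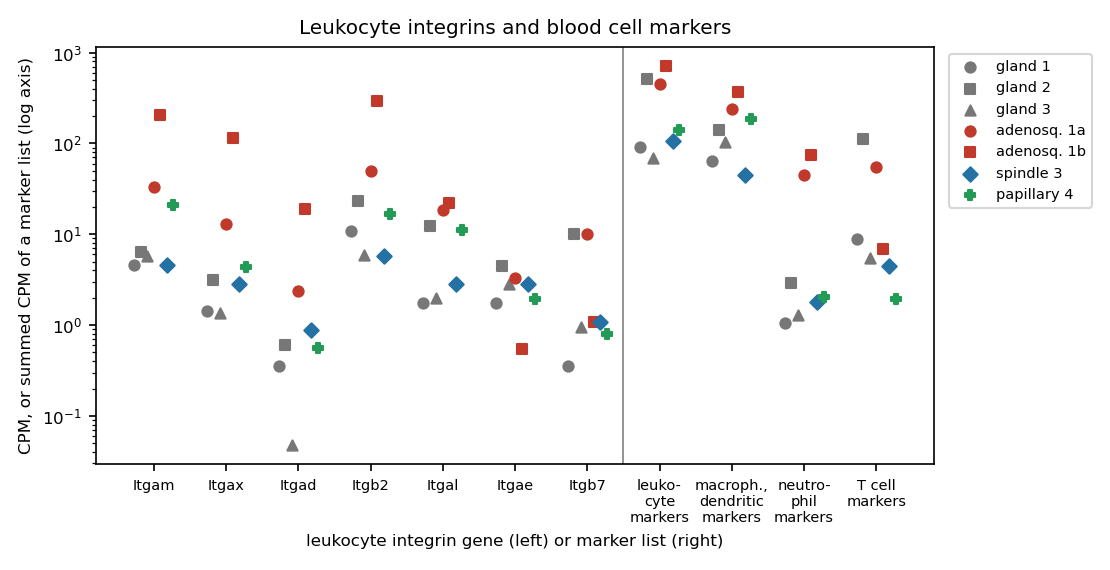
CPM of the 7 leukocyte integrin chains (left of the vertical line) and summed CPM of 4 marker lists (right) on a log axis, with 1 point per library. Tumour 1b (red square) is highest for Itgam, Itgax, Itgad, Itgb2 and the neutrophil and macrophage lists, and control gland 2 (grey square) is highest for the T cell list.

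The spindle cell and papillary tumours had 1 library each and no test. Members were counted where their log2 CPM lay at least 2 above the highest gland or below the lowest. In the spindle cell tumour only Itgb4 lay above (by 2.19; 3.76% of genes did) and 4 lay below: Lama2 (-4.40), Lamc3 (-3.90), Itga7 (-2.89) and Itga11 (-2.39), beside 5.8% of genes. In the papillary tumour Itga6 (2.48) and Lama5 (2.19) lay above, beside 5.11% of genes. Below the glands there were Lamc3 (-4.10), Lama2 (-3.57), Lama3 (-3.06), Itga7 (-2.93), Itga1 (-2.88) and Itgb3 (-2.43), beside 8.76% of genes.

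Among 80 tested genes of proteins that work with integrins and laminins, 6 rose, 2 fell and 72 did not pass over all tumours. Of all genes tested, 3.9% rose and 4.57% fell. The median log2 fold change of the 80 genes was 0.84, beside 0.12 over all genes. In the adenosquamous tumours 22 of 83 rose and 3 fell, beside 5.01% and 5.36% of all genes. Of 30 genes of focal adhesions, the sites where integrins meet actin, 4 rose and 2 fell over all tumours. Tns3, a tensin that binds integrin tails, rose from 20.02 ± 3.10 CPM (SD, n = 3) to 101 ± 28.5 CPM (SD, n = 4; log2 2.34, SE 0.30, adjusted p = 0.0101). Src, a kinase recruited by integrins, rose from 7.24 ± 2.77 to 49.8 ± 12.1 CPM (log2 2.75, SE 0.38, adjusted p = 0.0109). Lims2, an adaptor of integrin-linked kinase, fell from 11.5 ± 3.28 to 0.865 ± 0.582 CPM (log2 -3.78, SE 0.66, adjusted p = 0.0188). Actn4, which crosslinks actin, also rose (log2 1.36) and Tns1, another tensin, fell (-3.17); these 2 are named after their values were seen.

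Outside focal adhesions few partners passed over all tumours, where 3.9% of all genes rose and 4.57% fell. Agrn, a basement membrane proteoglycan that binds laminin, was 1 of 19 and rose from 28.2 ± 4.41 to 141 ± 29.6 CPM (n = 3 and 4; log2 2.32, SE 0.28, adjusted p = 0.00905). Tnc, a tenascin ligand of several integrins, was 1 of 18 soluble and matrix ligands and rose from 11.9 ± 2.38 to 734 ± 564 CPM (log2 5.94, SE 1.28, adjusted p = 0.0349). The spindle cell tumour, at 22.6 CPM, lay far below the other tumours, which were at 720.2 CPM or more. Of 4 hemidesmosome partners 0 passed in edgeR over all tumours (2 at unadjusted p under 0.05). DESeq2 called 1 higher and 1 lower, and limma-voom 1 lower. Dst, which ties hemidesmosomes to keratin, stood at -1.54 on the log2 scale (SE 0.44, adjusted p = 0.0732), opposite in sign to Itgb4. The others, named after their values were seen, stood at 3.91 (Col17a1, adjusted p = 0.168), 1.09 (Plec, 0.239) and -0.77 (Cd151, 0.391) in edgeR. In the adenosquamous tumours 1 of the 4 rose in edgeR, Col17a1 (log2 4.48, SE 0.76, adjusted p = 0.0264). Col17a1 was at 0.209 CPM in the papillary tumour, below every gland. Of 9 other laminin receptors 0 passed in edgeR (2 at unadjusted p under 0.05, 2 in DESeq2 and 0 in limma-voom). Sdc1, a syndecan of epithelia, was at 5.31 to 11.5 CPM in glands, 169 and 393 CPM in tumours 1a and 1b, and 28.0 and 25.7 CPM in tumours 3 and 4 (log2 4.05, SE 1.11, adjusted p = 0.0652). Without control gland 3 the count of pathway genes that rose was 0 in edgeR, with 17 at unadjusted p under 0.05. It was 12 when the papillary tumour was left out, and the shares of all genes called in these fits are not given here.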

How the data were processed

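Total RNA from 7 libraries was made into libraries with the TruSeq v2 kit, per the labels' protocols, a kit that does not mark strand. Per the submitters' processing notes, STAR 2.5, RSEM 1.3, limma and the build GRCm38 were used, with no roles stated; the sources used here give neither annotation nor strand setting. The authors' deposited values are expected counts per gene, in a column headed TPM whose sums differ between libraries; they were rounded to whole numbers. Between 2.34% and 6.14% of values per library were not whole.

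Members were matched by symbol. Genes were tested over the whole table in R 4.3.3 with edgeR 4.0.16: TMM scaling, filterByExpr (minimum count 10, total 15), a quasi-likelihood test, two-sided, with Benjamini-Hochberg adjustment over all genes. Common dispersion gave a biological coefficient of variation of 0.6 for the tumour comparison and 0.504 for the adenosquamous one. Each SE is the absolute log2 fold change divided by the square root of the F statistic. The scripts were tested on simulated data. Lengths are merged exons of GENCODE release M21 on GRCm38, and promoter sequences are RefSeq's. The members and lists were chosen with earlier results of these data known. Named were all members and, per pathway list, the 2 genes with the smallest adjusted p in its main direction, the 1 that passed and moved most the other way, or, if none passed, the gene with the smallest p. Alternatives were DESeq2 1.42.0, limma-voom (limma 3.58.1), other scalings and filters, control gland 2 alone, and leaving out each library. Some genes of the pathway and marker lists are counted but not reported by name here.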

Additional observations from a re-analysis of the deposited data

Results flagged for a closer look

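Among 36 members, 2 had 1 tumour standing apart from the other 3 by Dixon's gap, which chance gives in about 1 in 20 groups. Itgav was at a log2 CPM of 6.43 in the spindle cell tumour, below the other tumours, and Itgb7 was at 3.36 in adenosquamous tumour 1a, above the others.

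In 9 members both adenosquamous tumours lay above all glands while a tumour of another type lay below all glands, a difference that was not tested. The share of all genes with this pattern was not computed, so the count cannot be set against a background. The distances below the lowest gland, in log2 CPM, were as follows. In the spindle cell tumour Itga11 stood at -2.39, Itgb3 at -1.03, Itga2 at -0.43, Itgb1 at -0.14, Lamb1 at -0.097, Itgb2 at -0.051 and Itgam at -0.020. In the papillary tumour Lama3 stood at -3.06, Itgb3 at -2.43, Itga11 at -1.71, Lamb1 at -0.72, Itga2 at -0.64, Itgb1 at -0.31 and Itga9 at -0.23.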

How the results depend on the processing

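Counts are given in the order tumours higher (2), tumours lower (2), adenosquamous higher (10) and adenosquamous lower (2). DESeq2 gave 9, 2, 17 and 2, beside 12.8%, 11.3%, 11.9% and 12.3% of all genes. The counts in limma-voom were 1, 2, 10 and 1, beside 4.46%, 6.31%, 6.01% and 4.75%. The shares in edgeR were 3.9%, 4.57%, 5.01% and 5.36%. With control gland 2 as the only control edgeR gave 0 in each (3, 2, 11 and 2 at unadjusted p under 0.05). Leaving out 1 library at a time, the counts ranged from 0 to 4, 1 to 2, 0 to 11 and 0 to 2. Pathway genes higher (6) and lower (2) over all tumours were 25 and 3 in DESeq2, 0 and 0 with control gland 2 alone (6 and 4 at unadjusted p under 0.05), and 0 to 12 and 1 to 2 leaving out 1 library. Without a filter 15 members rose in the adenosquamous tumours. Shares of all genes called are not given here for that fit or for those leaving out 1 library. Their counts thus cannot be set against a background. Median-ratio and upper-quartile scaling, removal of mitochondrial genes and a filter of 1 CPM changed no count of members; over all genes the median log2 fold change moved from 0.12 to between 0.067 and 0.12 with them.

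No called member changed sign. Values that turned, none of them called, were: in limma-voom Itga2b (-0.39), Itga8 (-0.20), Itga11 (-0.78), Itgb3 (-0.85) and Itgb6 (0.57); without a filter Itgb6 (0.011); with control gland 2 alone Itga2b (-0.12) and Itgb6 (2.19). Leaving out 1 library at a time, values ranged from -0.55 to 0.51 for Itga2b, -0.56 to 0.58 for Itgb6, -1.32 to 0.71 for Itga4, -1.99 to 2.16 for Itgb7, -0.40 to 1.53 for Itga11, -0.19 to 0.42 for Lamb1, -1.75 to 1.69 for Itga8, -0.66 to 1.12 for Lama1 and -1.63 to 0.017 for the Itgb6 to Itgb5 ratio. The cause was not tested. No paired analysis was possible because the labels give the glands and tumours no shared animal, litter or batch.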
